A study of Mus musculus with 2 samples.

Results

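Molecular chaperones of the cytosol and of mitochondria were examined in CD8 T cells that had been stimulated for 24 hours through CD3 and CD28. The set holds 41 genes out of 24013 gene symbols in the deposited table. It was defined by name: a table row belongs to it if its symbol equals one on the list, and 1 row stands for each symbol. Levels are given as normalized counts, the authors' read counts divided by 1 size factor per library.

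The study compared DGKζ-deficient (DGKζ-/-) with wild-type CD8 T cells, both from C57BL/6 mice and with 1 library each. The deficient animals were 6 weeks old and the wild-type animals 7 weeks old. The cells were naive when taken from the spleen and were cultured on plates coated with antibodies to both receptors. How many animals stand behind each library is not stated in the labels. DGKζ is a lipid kinase that removes diacylglycerol, the messenger that carries the T cell receptor signal to Ras and protein kinase C. With 1 library per genotype no difference below has a replicate check, and genotype, age, sex and library cannot be told apart. A difference between 2 bulk libraries also cannot tell a different number of cells of a type from a different amount of RNA per cell.

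The deficient library held 13464169 reads and the wild-type library 37211969 reads over 1 row per gene. The targeted gene Dgkz was read at 2591 normalized counts in the deficient and 6714 in the wild-type library, 2.59-fold lower (95% counting interval 2.46 to 2.74). Reads of Xist stood at 9206 normalized counts in the deficient and 14.0 in the wild-type library, so the libraries differed in sex, and 0 of the 40 annotated chaperone genes lie on the X or Y chromosome. The T cell markers Cd3d, Cd3e, Cd3g, Cd8a and Cd8b1 summed to 22072 normalized counts in the deficient and 31261 in the wild-type library. Of 10 B cell markers all 10 were lower in the deficient library, with sums of 2241 and 3052 normalized counts in the deficient and wild-type libraries. Of 7 natural killer markers, 5 were lower in the deficient library. In 4 of them, Ncr1, Klrb1c, Klra1 and Klra8, it had 0 reads, against 7, 9, 7 and 2 in the deeper wild-type library. The counting interval of each of these 4 folds held 1. Klrd1 was read at 134 normalized counts in the deficient and 395 in the wild-type library, whereas Eomes was read at 1861 and 956 and Klrk1 at 633 and 587. Marker sums are given next, deficient before wild type, and they can hide members that differ in opposite directions. Markers of CD4 T cells summed to 422 and 490 normalized counts, with Cd4 at 53.2 and 171, Zbtb7b at 48.0 and 57.1 and Foxp3 at 321 and 262. Those of natural killer cells summed to 2627 and 1952. Those of myeloid cells summed to 274 and 286, with 7 of 8 lower in the deficient library and Mpeg1 higher, at 185 and 127. Those of erythroid cells summed to 60.0 and 77.6, with 4 of 6 lower. An average of 50 normalized counts was reached by 8 B cell, 3 natural killer, 2 myeloid and 0 erythroid markers. Of all genes at such levels 58.2% were higher in the deficient library, against 31.7% of all 24013 gene symbols. The counts of lower myeloid and erythroid markers therefore do not set them apart. The part of these cell types in the results below was not tested.

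Chaperones help other proteins to fold and to stay soluble. HSP70 proteins bind short unfolded stretches and are driven by J-domain proteins and nucleotide exchange factors. HSP90 takes over late folding steps of kinases and steroid receptors with its own cochaperones. The ring-shaped chaperonin TRiC folds actin and tubulin, which the prefoldin complex delivers to it. A separate set, with mitochondrial HSP70 and the HSP60 and HSP10 chaperonin, folds proteins imported into mitochondria. Activated T cells enlarge and make protein at a high rate, and heat shock factors bind repeated GAA and TTC units in the promoters of many of these genes.

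The promoters shown here are those of an inducible pair, of a small heat shock protein, of a mitochondrial pair and of the cytosolic members Hsph1 and Cct5, because they carry such units while their transcripts range from nearly absent to abundant. Of the 41 genes 34 have a promoter window in the RefSeq table of build GRCm38.p6. Hsf1, Hsp90aa1, Hsp90ab1, Hspa8, Hspa9, Cct4 and Pfdn1 have none. Each line gives the 150 bases before the annotated start on the strand of the gene, and capitals mark every GAANNTTC or TTCNNGAA pair.
Hspe1 (chr1:55087998-55088147, plus strand): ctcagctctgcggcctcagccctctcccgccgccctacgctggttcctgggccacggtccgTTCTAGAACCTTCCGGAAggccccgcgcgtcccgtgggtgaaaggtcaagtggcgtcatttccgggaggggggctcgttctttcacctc
Hspa1a (chr17:34972157-34972306, minus strand): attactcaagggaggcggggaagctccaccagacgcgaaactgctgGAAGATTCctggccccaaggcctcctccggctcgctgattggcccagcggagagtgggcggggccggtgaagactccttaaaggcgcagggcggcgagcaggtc
Hspa1b (chr17:34959239-34959388, minus strand): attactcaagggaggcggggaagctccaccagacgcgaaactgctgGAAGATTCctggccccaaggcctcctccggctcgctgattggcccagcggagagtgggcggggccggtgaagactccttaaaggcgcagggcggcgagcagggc
Hspb1 (chr5:135887769-135887918, plus strand): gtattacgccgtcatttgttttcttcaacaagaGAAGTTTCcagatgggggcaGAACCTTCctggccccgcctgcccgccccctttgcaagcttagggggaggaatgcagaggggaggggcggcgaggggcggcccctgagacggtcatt
Hsph1 (chr5:149636337-149636486, minus strand): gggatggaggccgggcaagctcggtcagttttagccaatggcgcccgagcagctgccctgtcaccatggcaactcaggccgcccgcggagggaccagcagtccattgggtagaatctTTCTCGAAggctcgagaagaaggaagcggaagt
Cct5 (chr15:31601847-31601996, minus strand): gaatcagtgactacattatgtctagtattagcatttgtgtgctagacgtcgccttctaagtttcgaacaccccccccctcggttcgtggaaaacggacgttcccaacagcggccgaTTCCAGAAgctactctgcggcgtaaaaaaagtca

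The stretches of Hspa1a and Hspa1b were identical in 149 of 150 bases. Hspe1 and Hspd1 are divergent neighbours, with an Hspd1 start 216 bases from that of Hspe1, and the run of alternating units printed for Hspe1 lies between them. A second annotated Hspd1 start lies on the other side of the Hspe1 start, and its window holds none of these units. The longer element GAANNTTCNNGAA, searched on both strands of the 250 bases before each start, was found in 3 of the 34 genes, Hspd1, Hspe1 and Dnajb6. It was held by 4 of their 44 windows (9.09%) and by 0.466% of all 32851 windows. These 4 windows are not independent. Hspd1 and Hspe1 share the same stretch, and the windows of Dnajb6 overlap and hold the same element. Of the overlapping shorter forms of this element, GAANNTTC was in 22.7% of the chaperone windows and 6.69% of all, and TTCNNGAA in 15.9% and 7.17%. These shares also count some stretches more than once, such as those of Hspa1a and Hspa1b. Enrichment was not tested. The E-box CACGTG was in 9.09% of the chaperone windows and 6.02% of all. The CCAAT box was in 40.9% and 33.8%. A match describes the letters in the window and does not show binding.

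Of the 41 genes, 37 averaged 50 or more normalized counts over both libraries and were compared. All 37 stood at 354 normalized counts or more in both libraries, so none was compared through its higher library alone. The other 4, Hspa1a, Hspa1b, Hspb1 and Bag3, were below that mean. The log2 ratio, log2 of deficient over wild type with 10 normalized counts added to each, was above 0 in 31 of the 37 (83.8%), against 58.2% of all 10518 genes compared. Scaled to equal read totals instead, 26 of the 37 were above 0, against 44.8% of all genes. The median log2 ratio was 0.24 for the 37 chaperones and 0.055 for all genes, or 0.15 and -0.033 at equal read totals. Abundant genes as a whole also tended upward. At means of 2000 normalized counts or more, 25 of 29 chaperones (86.2%) and 1876 of 2719 genes (69.0%) were above 0. Their median log2 ratios were 0.25 and 0.11. At means of 10000 or more, 15 of 16 chaperones (93.8%) and 261 of 324 genes (80.6%) were above 0, with medians of 0.30 and 0.17.

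The differences were small. A log2 ratio of 1 or more, at least 2-fold higher, was reached by 0 of 37 chaperones, against 1.30% of all genes, and -1 or less by 0, against 1.29%. At least 1.5-fold higher were 0 of 37, against 4.53% of all genes, and at least 1.5-fold lower 0, against 5.07%. Few genes of any kind passed these folds, so a count of 0 among 37 does not set the chaperones apart. In 8 of the 37 the counting interval of the fold held 1, against 42.5% of all genes, many of which were read at lower depth. With the deposited size factors, a difference in Dnaja1, Dnajb1, Dnajb6, Dnaja3, Fkbp5, Pfdn1, Pfdn2 and Pfdn5 was therefore not detectable at this depth. Another scaling can change which intervals hold 1.

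**Figure D1:**
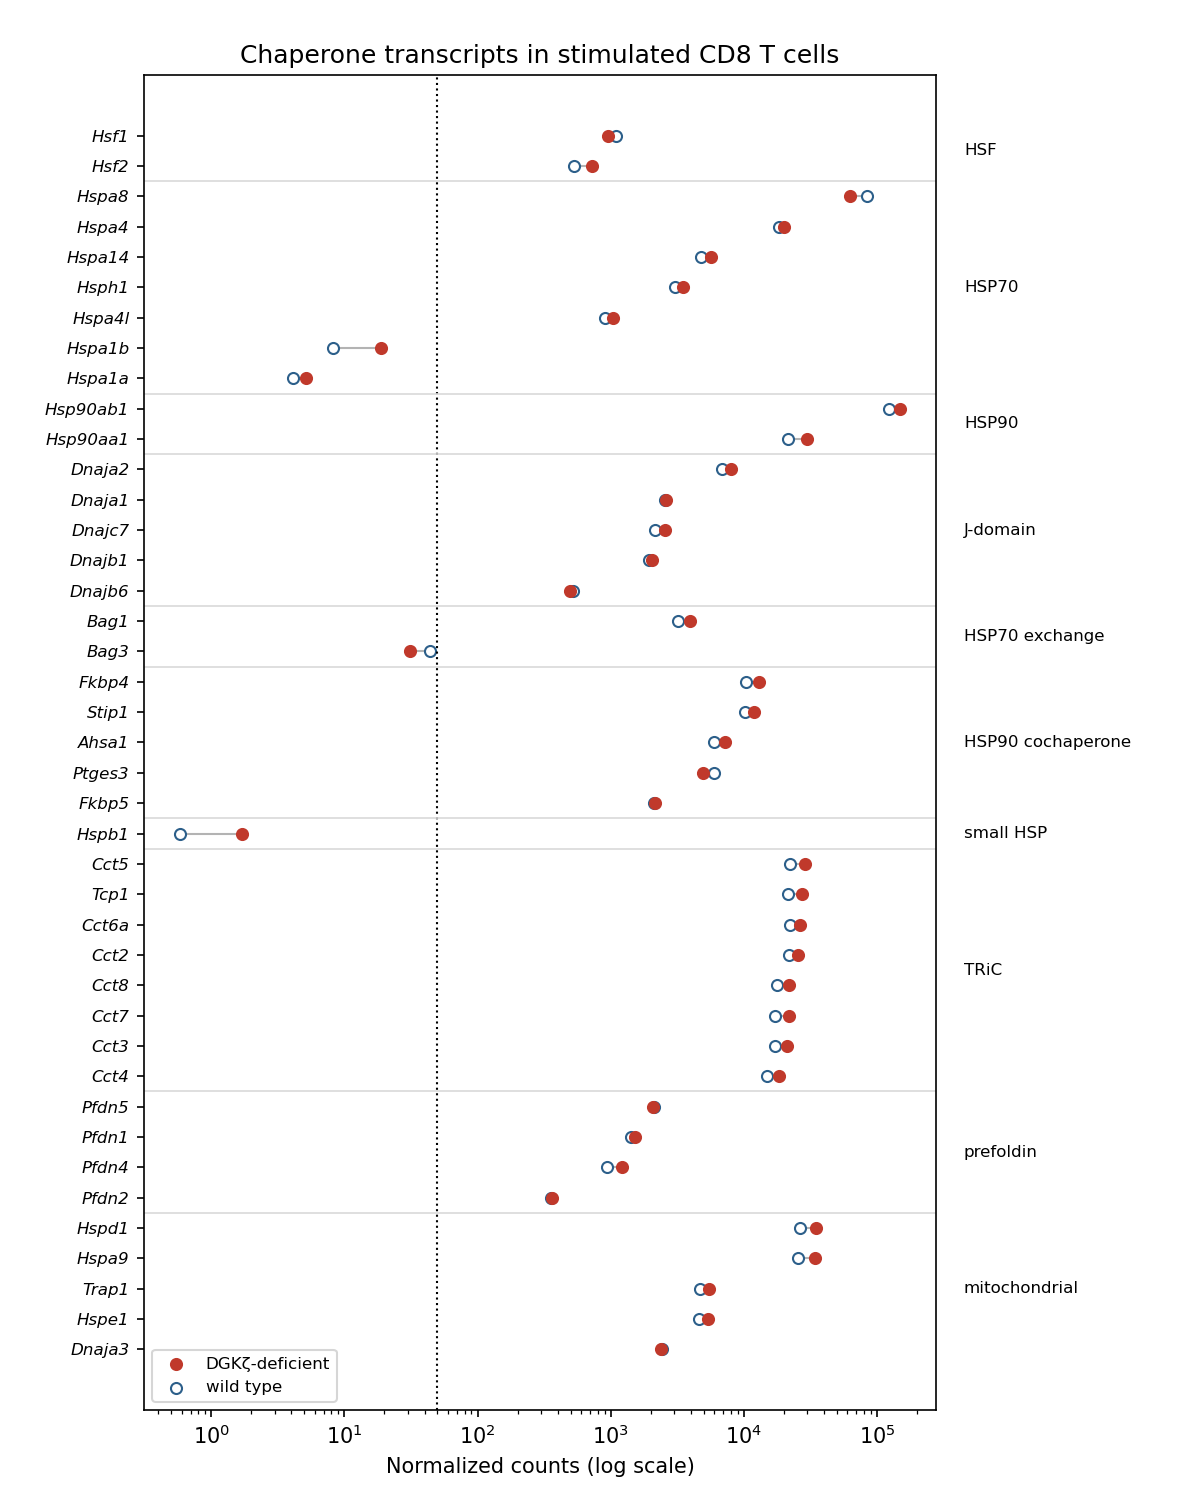
Normalized counts (log axis) of all 41 chaperone genes, grouped by role and ordered by mean level, in the DGKζ-deficient (filled) and wild-type (open) library. The dotted line marks 50 normalized counts. Levels ran from single reads of Hspb1 to Hsp90ab1, and the 2 libraries lay close together for nearly every gene, with Hspa8 lower and the TRiC genes higher in the deficient library.

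Of the heat shock factors, Hsf1, the master activator of stress-inducible chaperones, was read at 952 normalized counts in the deficient and 1094 in the wild-type library. It was 1.15-fold lower (1.05 to 1.27). Hsf2, a related factor that can pair with HSF1, was read at 725 in the deficient and 529 in the wild-type library, 1.37-fold higher (1.22 to 1.54). The 2 factors thus differed in opposite directions. Within the library, Hsf2 made up 43.3% of the reads of both factors in deficient cells (exact interval 40.1 to 46.4) and 32.6% in wild-type cells (30.8 to 34.4), a share that no size factor enters.

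The stress-inducible HSP70 genes were almost silent in both libraries. Hspa1a was read at 5.14 normalized counts (3 reads) in the deficient and 4.08 (7 reads) in the wild-type library. Hspa1b stood at 18.9 (11 reads) in the deficient and 8.16 (14 reads) in the wild-type library, a ratio of 2.31 with an interval of 0.949 to 5.48. Both genes are near-identical copies, so the split between both genes is uncertain. Together they made up 0.0258% (0.0141 to 0.0432) of cytosolic HSP70 reads in the deficient and 0.0111% (0.00686 to 0.0169) in the wild-type library. Hspb1, the small heat shock protein HSP27, had 1 read in each library. Bag3, an inducible exchange factor of HSP70, was read at 30.9 normalized counts in the deficient and 44.3 in the wild-type library, a ratio of 0.697 (0.392 to 1.18). None of these 4 genes had a difference detectable at this depth, although 3 of them carry the heat shock units printed above.

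Hspa8, the constitutive cytosolic HSP70 (HSC70), was the 1 gene lower in the deficient library among the 16 chaperones at means of 10000 normalized counts or more. It was read at 62895 normalized counts in the deficient and 83483 in the wild-type library, 1.33-fold lower (1.31 to 1.34), with the lowest log2 ratio of the 37 (-0.41). The other measured HSP70 genes were higher in the deficient library. Hspa14, an HSP70 bound to ribosomes, was read at 5692 normalized counts in the deficient and 4776 in the wild-type library, 1.19-fold higher (1.14 to 1.24). A second row of Hspa14 had a log2 ratio of 0.047, so its value depends on the transcript counted.

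Hspa4, Hspa4l and Hsph1 encode HSP110-type proteins that release nucleotide from HSP70. Hspa4 was read at 20064 normalized counts in the deficient and 18261 in the wild-type library, 1.10-fold higher (1.08 to 1.12). Hsph1 was read at 3519 and 3062 in the deficient and wild-type libraries, and Hspa4l at 1036 and 906. All 3 were higher in the deficient library by at most 1.15-fold. Hspa8 therefore took 67.5% (67.1 to 67.9) of the cytosolic HSP70 reads in the deficient and 75.6% (75.4 to 75.7) in the wild-type library. Cytosolic HSP70 reads are here, as above, those of all 7 genes of the class, with Hspa4, Hspa4l and Hsph1 included. The annotation places 3 small nucleolar RNA genes, Snord14c, Snord14d and Snord14e, inside Hspa8, and their reads were not separated here. Such genes also lie inside Tcp1 (Gm26130 and Snora20) and Hspa9 (Gm22200 and Gm26109).

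Both HSP90 genes were higher in the deficient library. Hsp90ab1, the constitutive HSP90β, was read at 148801 normalized counts in the deficient and 122326 in the wild-type library, 1.22-fold higher (1.21 to 1.23). It was the most abundant chaperone transcript, with 59048 normalized counts per kilobase of transcript in the deficient and 48542 in the wild-type library, against 26272 and 34872 per kilobase for Hspa8. Hsp90aa1, the inducible HSP90α, was read at 30024 normalized counts in the deficient and 21389 in the wild-type library. Its 1.40-fold difference (1.38 to 1.43) was the highest of the 37, with a log2 ratio of 0.49. Hsp90aa1 made up 16.8% (16.6 to 17.0) of HSP90 reads in the deficient and 14.9% (14.74 to 15.02) in the wild-type library.

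With HSP90 higher and Hspa8 lower, the balance between them differed more than either gene. There were 2.84 HSP90 reads per Hspa8 read (2.81 to 2.88) in the deficient and 1.72 (1.71 to 1.73) in the wild-type library, a ratio of 1.65 between the libraries that no size factor enters. Reads per Hspa8 read were also higher in the deficient library for TRiC (3.04 and 1.85), Hspd1 (0.557 and 0.315), Hspa9 (0.543 and 0.307) and Hspa4 (0.319 and 0.219), deficient given before wild type. Each of these ratios has Hspa8 as its divisor and shares its difference.

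**Figure D2:**
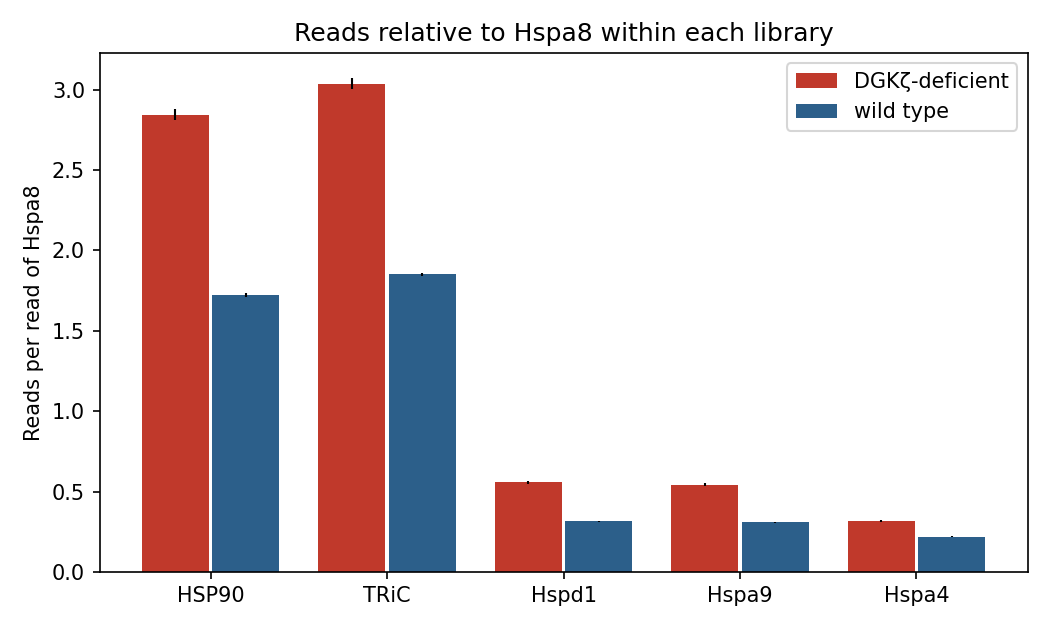
Reads of HSP90 (Hsp90aa1 and Hsp90ab1), the 8 TRiC genes, Hspd1, Hspa9 and Hspa4 per read of Hspa8 in the DGKζ-deficient (left bars) and wild-type (right bars) library, with 95% counting intervals. All 5 ratios are higher in the deficient library, for HSP90 2.84 against 1.72.

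Of 11 measured helpers of HSP70 and HSP90 in the set, 9 had a log2 ratio above 0 (81.8%, against 58.2% of all genes), and 6 (54.5%, against 44.8%) at equal read totals. The interval of the fold lay above 1 in 6 of the 11, held 1 in 4 and lay below 1 in Ptges3. Of the J-domain proteins, which bring clients to HSP70 and trigger its ATPase, Dnajc7 was read at 2564 normalized counts in the deficient and 2170 in the wild-type library, 1.18-fold higher (1.11 to 1.26). Dnaja2 was read at 8019 in the deficient and 6834 in the wild-type library, 1.17-fold higher (1.13 to 1.21). The inducible Dnajb1 stood at 2053 and 1944 and Dnaja1 at 2619 and 2552 normalized counts in the deficient and wild-type libraries, and both changed sign at equal read totals. Dnajb6, whose promoter holds the long heat shock element, was read at 494 and 524 normalized counts in the deficient and wild-type libraries, a ratio of 0.942 (0.822 to 1.08), and its 4 rows had log2 ratios from -0.085 to 0.10. Bag1, a nucleotide exchange factor, was read at 3938 in the deficient and 3213 in the wild-type library, 1.23-fold higher (1.17 to 1.29).

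Among HSP90 cochaperones Fkbp4 led, an immunophilin of steroid receptor complexes, at 12890 normalized counts in the deficient and 10362 in the wild-type library, 1.24-fold higher (1.21 to 1.28). Ahsa1, which stimulates the ATPase of HSP90, was read at 7189 and 5927 in the deficient and wild-type libraries. Stip1 (HOP), the adaptor that hands clients from HSP70 to HSP90, was read at 11971 and 10144. Both were higher in the deficient library, 1.21-fold (1.17 to 1.26) for Ahsa1 and 1.18-fold (1.15 to 1.21) for Stip1. Ptges3 (p23), which stabilises the closed state of HSP90, went the other way, at 4963 normalized counts in the deficient and 5919 in the wild-type library, 1.19-fold lower (1.14 to 1.24). Per 1 HSP90 read there were 0.0278 Ptges3 reads (0.0267 to 0.0288) in the deficient and 0.0412 (0.0404 to 0.0420) in the wild-type library. Fkbp5, an immunophilin induced by glucocorticoids, was read at 2142 and 2107 in the deficient and wild-type libraries, and its log2 ratio of 0.023 changed sign at equal read totals. Over all 18 measured genes of the HSP70 and HSP90 system the median log2 ratio was 0.22, with 15 above 0 (83.3%, against 58.2% of all genes). At equal read totals the median was 0.13, with 12 above 0 (66.7%, against 44.8%).

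**Figure D3:**
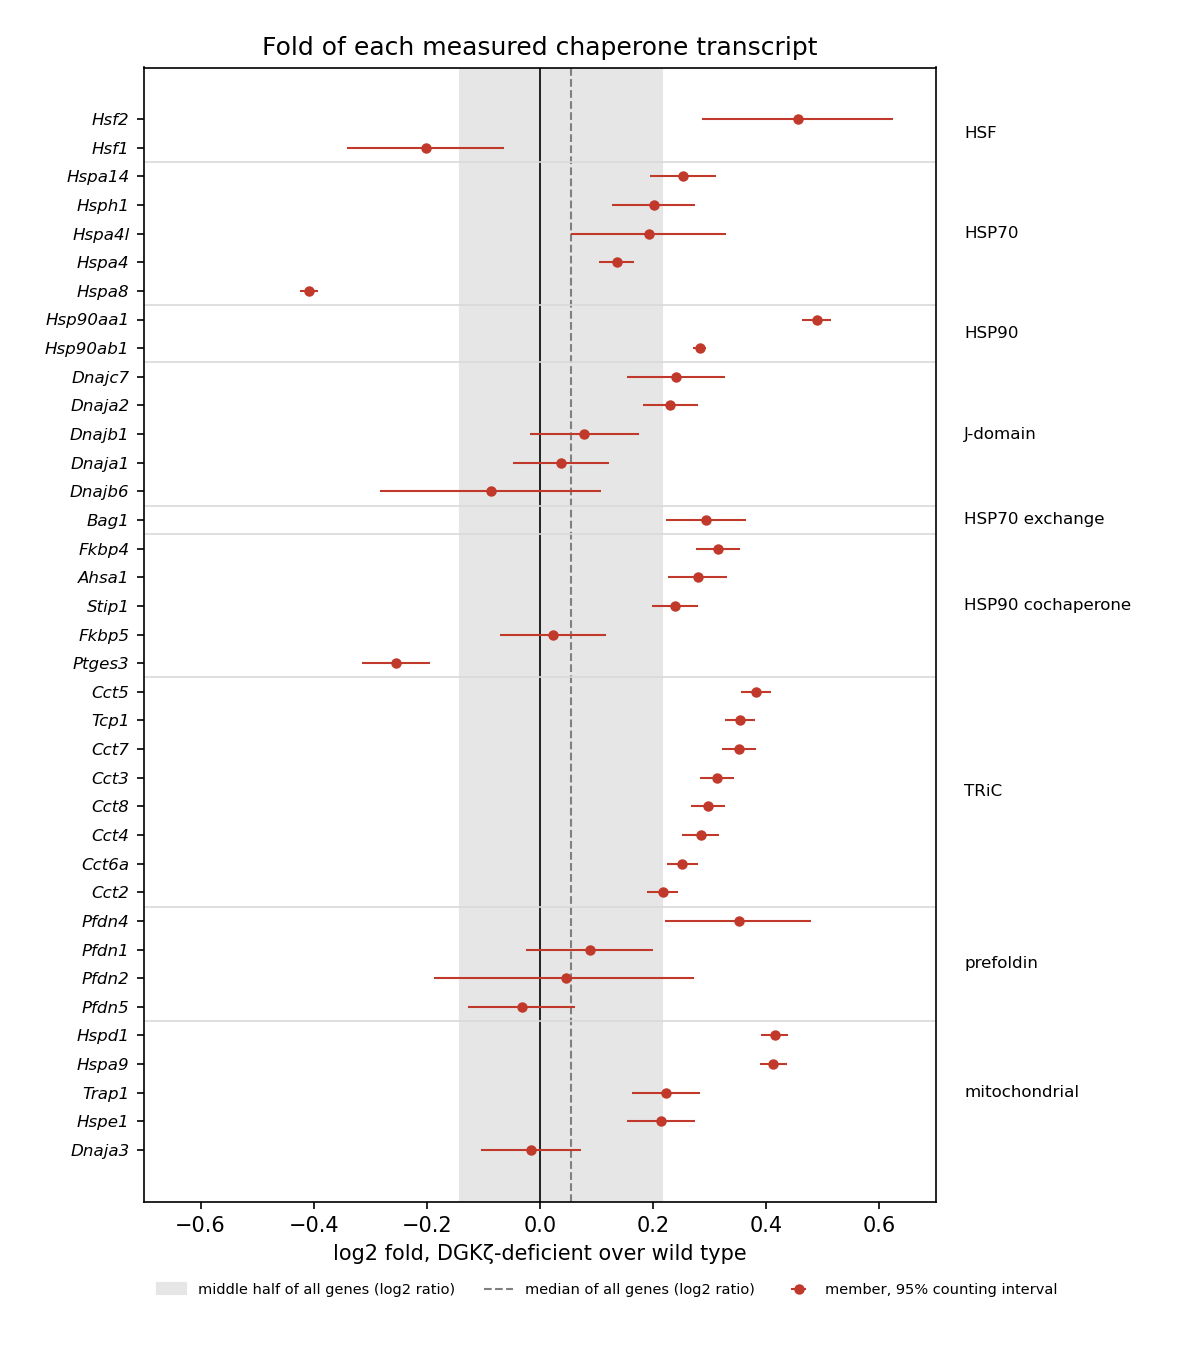
Log2 fold (DGKζ-deficient over wild type, no pseudocount) of the 37 measured chaperone genes with 95% counting intervals, grouped by role. The grey band spans the quartiles of the log2 ratio of all 10518 genes (-0.14 to 0.22) and the dashed line their median. The 8 TRiC genes lie close together above 0, Hsp90aa1 is highest, and Hspa8, Ptges3 and Hsf1 lie below the band.

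TRiC was the most uniform class. All 8 subunit genes were higher in the deficient library under every scaling tried, with a median log2 ratio of 0.30 and a range from 0.22 to 0.38. Of all genes, 58.2% were above 0, or 44.8% at equal read totals. At means of 10000 normalized counts or more, which all 8 reached, 261 of 324 genes (80.6%) were above 0, with a median of 0.17. Cct5 had the highest ratio, at 28808 normalized counts in the deficient and 22100 in the wild-type library, 1.30-fold higher (1.28 to 1.33). Tcp1 was read at 27387 in the deficient and 21439 in the wild-type library, 1.28-fold higher (1.25 to 1.30). Cct2 had the lowest ratio, at 25447 in the deficient and 21895 in the wild-type library, 1.16-fold higher (1.14 to 1.18). Its interval lies below those of Cct5 and Tcp1, so the subunits differed among themselves by more than counting error.

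The other 5 TRiC genes lay between them. Cct7 was read at 21743 normalized counts in the deficient and 17029 in the wild-type library. Cct3 was read at 21220 and 17088, and Cct8 at 21845 and 17787, in the deficient and wild-type libraries. Cct4 was read at 18241 and 14984, and Cct6a at 26346 and 22128. All were higher in the deficient library, by 1.19-fold to 1.28-fold. As shares of TRiC reads, the subunits moved little. Cct5 took 15.1% (14.9 to 15.3) in the deficient and 14.3% (14.2 to 14.4) in the wild-type library, while Cct2 took 13.3% (13.1 to 13.5) and 14.2% (14.0 to 14.3). The smallest share was that of Cct4, at 9.55% (9.38 to 9.72) in the deficient and 9.70% (9.59 to 9.81) in the wild-type library.

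Per kilobase of transcript, the 7 TRiC genes with a known length kept the same order in both libraries, from Cct5 through Cct2, Tcp1, Cct3, Cct8 and Cct7 to Cct4. Cct5 had 15547 normalized counts per kilobase in the deficient and 11927 in the wild-type library, and Cct4 had 7343 and 6032. The spread over these genes, as a coefficient of variation of the level per kilobase, was 25.5% in the deficient and 24.9% in the wild-type library. The library kit does not mark strand. Exons of 13 of the chaperone genes, Tcp1, Cct7 and Cct8 among them, overlap annotated exons on the opposite strand.

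**Figure D4:**
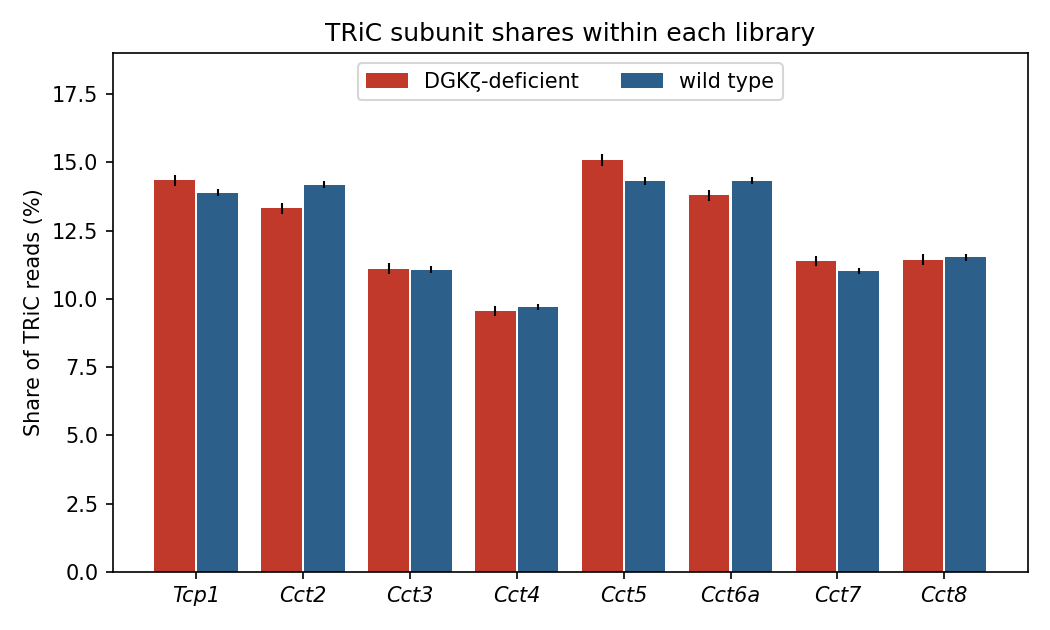
Share of TRiC reads (%) taken by each of the 8 subunit genes in the DGKζ-deficient (left bars) and wild-type (right bars) library, with exact 95% intervals. The shares are alike in both libraries, with the widest gaps at Cct5 (15.1% in the deficient, 14.3% in the wild-type library) and Cct2 (13.3% and 14.2%).

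The 4 prefoldin genes of the set, whose products pass unfolded actin and tubulin to TRiC, did not share the uniform shift. Pfdn4 was read at 1206 normalized counts in the deficient and 945 in the wild-type library, 1.28-fold higher (1.17 to 1.39). Pfdn1 was read at 1523 and 1433, and Pfdn2 at 365 and 354, in the deficient and wild-type libraries. Pfdn5 stood at 2075 in the deficient and 2122 in the wild-type library, a ratio of 0.978 (0.915 to 1.04), and in these 3 genes the counting interval held 1. The median log2 ratio of the 4 was 0.066, and -0.022 at equal read totals. There were 0.0271 prefoldin reads per TRiC read (0.0261 to 0.0281) in the deficient and 0.0314 (0.0307 to 0.0321) in the wild-type library. This ratio and the median leave out the prefoldin subunit genes Pfdn6 and Vbp1, which are not in the set. Pfdn6 was 1.27-fold higher (1.18 to 1.36) in the deficient library, and Vbp1 had a ratio of 1.02 (0.955 to 1.08). Pfdn2 and Pfdn4 overlap genes on the opposite strand, Klhdc9 for Pfdn2 and Cyp24a1 and Gm16796 for Pfdn4.

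In mitochondria, the 2 main folding machines were higher in the deficient library by nearly the same factor. Hspd1, the HSP60 chaperonin, was read at 35056 normalized counts in the deficient and 26300 in the wild-type library, 1.33-fold higher (1.31 to 1.36). Hspa9, the mitochondrial HSP70 (mortalin) that also drives import, was read at 34156 in the deficient and 25659 in the wild-type library, 1.33-fold higher (1.31 to 1.35). Hspe1, the HSP10 lid of the same chaperonin, was read at 5354 in the deficient and 4617 in the wild-type library, 1.16-fold higher (1.11 to 1.21). Although Hspe1 and 1 of the annotated Hspd1 starts share the promoter stretch printed above, the intervals of the Hspd1 and Hspe1 folds did not overlap. Hspe1 took 13.2% (12.8 to 13.7) of the reads of the pair in the deficient and 14.9% (14.6 to 15.2) in the wild-type library. Annotated exons of the 2 genes overlap on opposite strands, so some reads may be counted for either.

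Trap1, the mitochondrial HSP90, was read at 5438 normalized counts in the deficient and 4660 in the wild-type library, 1.17-fold higher (1.12 to 1.22). Dnaja3, the J-domain partner of Hspa9, did not join them, at 2406 in the deficient and 2432 in the wild-type library, a ratio of 0.989 (0.931 to 1.05). The median log2 ratio of the 5 mitochondrial genes was 0.22, and 0.13 at equal read totals. On both scalings 4 of the 5 were above 0, against 58.2% and 44.8% of all genes. As a share of all chaperone reads, TRiC took 31.3% and 29.1%, and Hspa8 alone 10.3% and 15.7%, in the deficient and wild-type libraries. All 41 genes together took 2.65% of the reads in the deficient and 2.45% in the wild-type library.

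Further genes of the same pathways were taken from lists, and several of their counts depended on the scaling. Of 20 measured genes of mitochondrial import and protein quality control, 18 were above 0 in log2 ratio (90.0%, against 58.2% of all genes), with a median of 0.16. At equal read totals 13 were above 0 (65.0%, against 44.8%), with a median of 0.074. The highest was Lonp1, the matrix protease, at 6798 normalized counts in the deficient and 4719 in the wild-type library, 1.44-fold higher (1.387 to 1.497), and the lowest was Dnajc15, at 2729 and 2913, 1.07-fold lower (1.01 to 1.13). Of 33 measured further helpers of HSP70 and HSP90, 18 were above 0 (54.5%), a share near the 58.2% of all genes, and their median of 0.048 lay near the 0.055 of all genes. Hspa2, an HSP70 best known from testis, was past 1.5-fold, at 101 in the deficient and 61.8 in the wild-type library, a ratio of 1.64 (1.17 to 2.27). Bag6, which guards membrane proteins on their way to insertion, was lowest, at 2765 in the deficient and 4119 in the wild-type library, 1.49-fold lower (1.41 to 1.57).

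Of 12 measured partners of TRiC and prefoldin, 8 were above 0 (66.7%, against 58.2% of all genes), and 6 (against 44.8%) at equal read totals, shares near those of all genes. Their median log2 ratio was 0.099, and 0.010 at equal totals. Pfdn6, a prefoldin subunit, was highest, at 1835 normalized counts in the deficient and 1446 in the wild-type library, 1.27-fold higher (1.18 to 1.36). Pdcl, a phosducin-like protein, was lowest, at 859 and 964, 1.12-fold lower (1.02 to 1.24).

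Among the 12 TRiC clients 12 were above 0, against 58.2% of all genes, with a median of 0.26. At equal read totals 9 were above 0 (against 44.8% of all genes), with Actb, Actr2 and Actr3 below it. The highest was Tubb2a, a β-tubulin, at 791 normalized counts in the deficient and 476 in the wild-type library, 1.66-fold higher (1.48 to 1.86). Tuba1a was read at 2545 in the deficient and 1598 in the wild-type library, 1.59-fold higher (1.49 to 1.70). Tuba1c was read at 2869 in the deficient and 1904 in the wild-type library, 1.51-fold higher (1.42 to 1.60). The tubulin genes are close copies of one another, and the split of reads between them is uncertain. Actr3 was lowest, at 10990 and 10855, a ratio of 1.01 (0.984 to 1.04), and Actb, β-actin, stood at 229299 and 224906 normalized counts in the deficient and wild-type libraries, with a log2 ratio of 0.028.

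Beside other folding and degradation machinery, the cytosolic and mitochondrial chaperones did not stand alone. The median log2 ratio was 0.27 for 14 subunits of the 20S proteasome, and 0.18 at equal read totals. On both scalings 14 of the 14 were above 0, against 58.2% and 44.8% of all genes. Among genes at means of 2000 normalized counts or more, 69.0% were above 0 with the deposited size factors, with a median of 0.11. Psmb6 was highest, at 5891 normalized counts in the deficient and 4287 in the wild-type library, 1.37-fold higher (1.32 to 1.43), and Psma2 lowest, at 7381 and 6836, 1.08-fold higher (1.04 to 1.12). For 15 chaperones of the endoplasmic reticulum the median was 0.14, with 12 above 0 (80.0%), and at equal totals 0.051, with 11 above 0 (73.3%). Manf was highest, at 3526 and 2682, 1.31-fold higher (1.25 to 1.39), and Dnajc3 lowest, at 3512 and 3818, 1.09-fold lower (1.03 to 1.14). Hspa5 (BiP), the HSP70 of that compartment, was read at 30707 normalized counts in the deficient and 24389 in the wild-type library, 1.26-fold higher (1.24 to 1.28). With 1 library per genotype, differences between these lists were not tested.

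None of the 41 genes has an adjusted p under 0.05 in the authors' deposited table, and 0 have an unadjusted p under 0.05. Those p-values rest on 1 library per genotype. The share of all genes under 0.05 was not computed, so the 0 does not set the chaperones apart. The adjusted p of Hsp90aa1 and that of Hspa8 are both 0.999 in the authors' deposited table, beside log2 fold changes of 0.37 and -0.31.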

How the data were processed

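Libraries of 1 DGKζ-deficient and 1 wild-type sample were compared. The submitters' processing notes name STAR (version 2), DESeq and build mm9, without stated roles. Which program counted reads, and on which annotation, is not stated in the labels. The main table the authors deposited holds a normalized count per RefSeq transcript row, a never-negative signal. Dividing each library by its lowest nonzero value gave whole numbers for 100% of values (relative tolerance 0.0001), so whole reads were recovered. The authors' deposited table of the comparison holds a log2 fold change, a p-value and adjusted p-value, and a test score, which was not used. Of 33018 deposited rows 1 (Alg6), shifted by a tab, was left out. For each symbol, the row highest on average was kept.

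The log2 ratio is log2 of (deficient + 10)/(wild type + 10) normalized counts, for genes with a mean of at least 50. This pseudocount understates the change of low genes. Folds carry no pseudocount, and their exact 95% Clopper-Pearson intervals, like those of shares, cover counting error only. The kit is not stated to use molecular identifiers, so reads may include PCR copies. With 1 library per genotype, no residual degrees of freedom are left for edgeR's quasi-likelihood test, so it was not run and no p-value was computed. edgeR 4.0.16 gave the TMM scaling. The labels pair no replicates. The procedures were checked on simulated data with counting noise alone and planted changes larger than any reported for the measured chaperones. That check does not cover differences between libraries or the choice of scaling.

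Members, classes and lists were chosen with earlier results of these data known. Full values are given for the 3 highest and 3 lowest members, the ends of each class, both heat shock factors, both HSP90 genes, Hspa8, Hspa1a and Hspa1b, and for the ends of each other list and its genes past 1.5-fold. Other genes were named with their values in view. Transcript lengths came from GENCODE M21 through RefSeq accessions (40 of 41 members). That annotation is of GRCm38, so it was used for lengths and overlaps alone.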

Additional observations from a re-analysis of the deposited data

How the results depend on the processing

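Recomputed at equal read totals, the median log2 ratio was 0.15 for all chaperones, 0.13 for the HSP70 and HSP90 system, 0.21 for TRiC and 0.13 for the mitochondrial genes. Recentred on the median of all genes, it was 0.18 for all chaperones and 0.25 for TRiC. With no expression minimum 1 gene, Hspa1b on 11 and 14 reads, passed 1.5-fold upward. The other values of these classes and counts stayed within their limits under TMM scaling, pseudocounts of 1 and 50, and minimum means of 200 and 2000. The same held for the sum of all transcript rows and the row with the lowest mean. For counts the limit was 1.5 times. For a class median the limits were the medians of its members' lower and upper counting bounds, which are not an interval of the median itself. The minimum of 2000, and the rescaling of the other gene lists, were chosen after seeing the data. The prefoldin median was -0.022 at equal totals, and -0.032 at the minimum of 2000, which leaves Pfdn5 alone. Of the 37 single-gene log2 ratios, 10 stayed within their counting interval at equal totals and 19 on recentring. That of Hsp90ab1, for example, was 0.28 with the deposited size factors and 0.19 at equal totals. The fold intervals therefore leave out the choice of scaling. Among single genes, Dnaja1, Dnajb1, Fkbp5, Pfdn1 and Pfdn2 changed sign at equal totals, and Dnaja1, Fkbp5 and Pfdn2 on recentring. No paired analysis was possible because each genotype has 1 library without a replicate number. A count test could not be made for the same reason. Depth limits Hspa1a, Hspa1b, Hspb1 and Bag3 most, and the deficient library, with fewer reads, sets the precision of most folds.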

Other observations

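Fkbp5 is a textbook target of the glucocorticoid receptor, and its level was alike in both libraries, so other genes of that receptor were looked at from a list. Of 8 listed genes 7 reached a mean of 50 normalized counts. Of these 7, 4 had a log2 ratio above 0 (57.1%, against 58.2% of all genes), with a median of 0.023. At equal read totals 3 were above 0 (42.9%, against 44.8%), with a median of -0.066. Both shares lie near those of all genes, so the list as a whole does not stand apart. Ddit4, an inhibitor of mTORC1, was 2.93-fold higher (2.58 to 3.34), at 797 normalized counts in the deficient and 272 in the wild-type library. Sgk1, a kinase, was read at 37.7 in the deficient and 101 in the wild-type library, 2.69-fold lower (1.72 to 4.40). With 22 reads in the deficient library, Sgk1 reached the minimum mean of 50 through the wild-type library alone. Per1, a clock gene, was read at 451 in the deficient and 833 in the wild-type library, 1.85-fold lower (1.62 to 2.11). The receptor gene Nr3c1 was read at 1585 and 1933 in the deficient and wild-type libraries, 1.22-fold lower (1.13 to 1.31). Tsc22d3 (GILZ) and Klf9 had log2 ratios of 0.36 and 0.39.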
